A study of Arabidopsis thaliana with 12 samples.

Results

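T87 callus was set against 2,4-D-induced callus across 21357 Arabidopsis thaliana genes. The comparison rests on 6 of the 12 one-colour arrays of the series, chosen by their titles: 3 of T87 callus and 3 of 2,4-D-induced callus. Both calli are labelled as wild type in the Col-0 strain and were kept on solid MS medium. T87 callus was callus of the T87 cell line on 500 nM NAA. The other callus had been induced with 2,4-D and was kept on 500 µg/L of it. The remaining 6 arrays hold callus-like plants of the genotype 35S:WIND1, which express the WIND1 transcription factor from the constitutive 35S promoter without treatment, and untreated 14-day-old wild-type Col-0 seedlings, 3 arrays each. Each array is labelled as a biological replicate from a different callus or plant. Values are log2 levels, that is the log2 of a signal over its array's 75th percentile, so that 0 is that percentile. Changes are T87 callus minus 2,4-D-induced callus.

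Callus is a mass of dividing cells that plants form on auxin-rich medium. T87 is a long-established Arabidopsis suspension line derived from a Columbia seedling, whereas the other callus had been induced from plant tissue. In fresh auxin-induced callus, cells typically follow the path by which lateral roots are founded, with LBD and PLETHORA transcription factors at its start. NAA and 2,4-D are both synthetic auxins. Auxin acts by letting TIR1/AFB receptors mark Aux/IAA repressors for destruction, and many Aux/IAA and GH3 genes are themselves auxin-induced. The doses differed, at 0.5 µM NAA against 2.26 µM 2,4-D. Auxin, dose, culture history and position on the slide (place 3 held T87 callus and place 4 held 2,4-D-induced callus on each of 3 slides) all differed between the 2 groups and cannot be told apart. In RNA from whole callus, fewer cells of a type and less RNA per cell cannot be told apart either.

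Replicates of a callus were close, with correlations across genes of 0.980 to 0.986 among T87 arrays and 0.977 to 0.986 among 2,4-D-induced arrays, against 0.763 to 0.796 between the calli. Genes are not independent replicates in these correlations. The 75th percentile of the signal was 3212 to 3440 units on the T87 arrays and 2196 to 3205 units on the 2,4-D-induced arrays, with the lowest on 2,4-D-induced replicate 2. A gene was called where the limma fit gave a Benjamini-Hochberg adjusted p under 0.05 and the change was at least 2-fold. By this rule 4206 genes were higher in T87 callus (19.7% of those tested) and 4094 were lower (19.2%), so 38.9% of all genes were called. The arrays of the 2 calli did not overlap for 71.8% of all genes. The median log2 change over all genes was -0.04, and every count below is to be read against these shares. Within slides, 8207 of the 8229 called genes that had a value on each of the 6 arrays moved 1 way on all 3. A gene that no array of a callus detected well above background is called at background there. Its change is written as a lower bound (at least N-fold) against the detection floor of those arrays. A gene could enter the test through 1 group alone, which for 550 genes was T87 callus and for 157 was 2,4-D-induced callus, and such genes had to differ. Their adjusted p-values are therefore no support for the difference. Below they are counted by list and not named, and genes at background in the dimmer callus may be among them. The bounds applied to 761 genes called higher in T87 callus (3.56%) and 878 called lower (4.11%). With normexp background correction, which compresses dim signals, 2301 genes were called higher and 1942 lower, and of the 293 genes named in the text 89 called ones kept their direction but lost the call and 7 changed sign. Losses of calls with normexp are noted below for some genes only, so no mention does not mean that a call held. Where only some arrays of the dimmer callus measured a gene, part of the dimmer callus's mean comes from undetected signals. Among genes named below this held for FDH, GBSS1, LAS, LTP1, MYB12, MYB34, NIMIN1, PDF2, PLT5, RHD6, SAG13, STM and YUC6, measured on 1 of 3 T87 arrays, and for GSTU2, PIN4, SMB and TAR2, measured on 2. In 2,4-D-induced callus ABI3, CESA8, CYCA2;1, FLC, FRK1, IAA31 and MYB60 were measured on 1 of 3 arrays and FUS3, HSP21, HSP22, IPT1, LOX2, SWEET11 and TIP3;1 on 2.

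WIND1 (AT1G78080), the regulator of wound-induced dedifferentiation that the series is built on, had log2 levels of 2.50, 1.95 and 2.36 in T87 callus, against 3.15, 2.74 and 2.70 in 2,4-D-induced callus. Its change of -0.59 (SE 0.21, limma adjusted p = 0.0316) was not called.

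**Figure D1:**
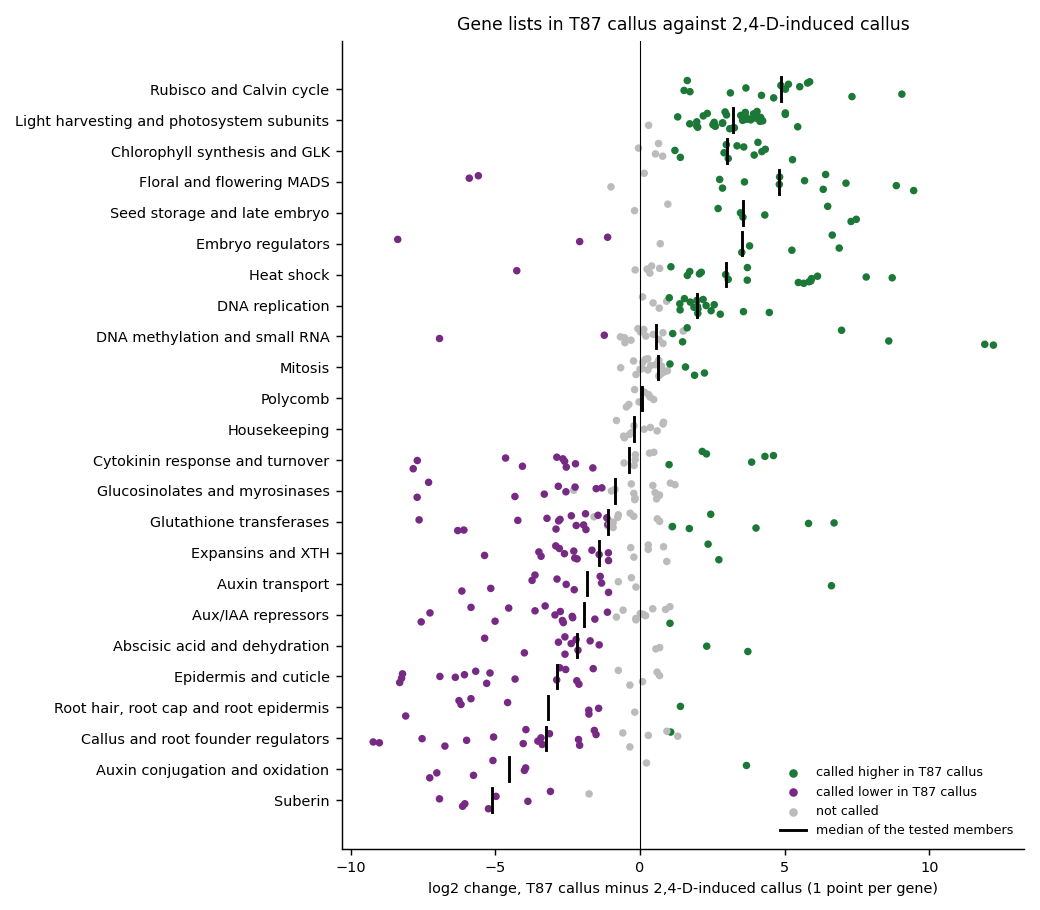
Log2 change of each tested member of 24 gene lists, T87 callus minus 2,4-D-induced callus, with 1 point per gene and a bar at the median of the list. Photosynthesis, MADS, seed and heat shock lists lie mostly to the right of 0, and suberin, auxin conjugation, root founder, root hair and epidermis lists mostly to the left.

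Regulators of root founder cells were mostly lower in T87 callus. Of 22 members, 16 were called lower in T87 callus and 1 higher, but 4 of the 22 entered through 2,4-D-induced callus alone and had to be lower. The median log2 change was -3.25, or -1.86 with dim members at their bounds, and -1.01 with normexp. PLT1 and PLT2 (AT3G20840 and AT1G51190) are PLETHORA factors that maintain the root stem cell niche. PLT2 had log2 levels of -8.61, -7.39 and -8.37 in T87 callus, against 0.87, 0.99 and 1.43 in 2,4-D-induced callus. PLT1 stood at -8.55, -8.83 and -8.87 in T87 callus, against -0.12, 0.18 and 0.72 in 2,4-D-induced callus. Both genes were at background on all 3 T87 arrays, far from every 2,4-D-induced array, and the differences came to at least 215-fold for PLT2 (limma adjusted p = 7.69e-08) and at least 120.0-fold for PLT1 (6.24e-09). WOX5, the homeobox gene of the root quiescent centre, was measured on all arrays at -6.02, -5.55 and -5.66 in T87 callus, against 1.64, 1.88 and 1.86 in 2,4-D-induced callus. It was 185-fold lower in T87 callus (log2 change -7.53, SE 0.64, adjusted p = 4.85e-06). The related WOX12, which acts with WOX11 in the step to root founder cells, averaged -4.32 ± 0.54 (SD, n = 3) in T87 callus and 0.74 ± 0.04 (SD, n = 3) in 2,4-D-induced callus, a log2 change of -5.06.

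The LBD genes, which auxin switches on during callus formation, were not all called. LBD17 was at least 27.4-fold lower in T87 callus, at -8.46, -8.71 and -8.69, against -1.51, -2.39 and -1.72 in 2,4-D-induced callus. LBD33, LBD29 and LBD18 were called lower as well, by at least 4.70-fold, at least 2.31-fold and at least 3.27-fold, and all were at background in T87 callus. With normexp LBD17 (-2.17), LBD33 (-1.02), LBD29 (-0.92) and LBD18 (-0.69) kept their direction and lost their calls. LBD16, the best-known callus inducer of this family, was present in both, with 0.23, 0.19 and 0.17 in T87 callus, against 0.67, 0.55 and 0.41 in 2,4-D-induced callus, and was not called (log2 change -0.35, adjusted p = 0.429). In 35S:WIND1 callus and seedlings, LBD16 averaged -4.19 ± 0.67 (SD, n = 3) and -3.55 ± 0.67 (SD, n = 3), below every array of both auxin calli. PLT5 and PLT3, which act in lateral root outgrowth and regeneration, changed by -6.0 and -3.53, and the radial patterning genes SHR and SCR by -3.13 and -1.52. ERF115, a wound-induced regulator of stem cell replenishment, was at least 4.01-fold lower in T87 callus (-1.01 and not called with normexp). WOX13, which acts in callus formation and organ reconnection, averaged 2.36 ± 0.08 (SD, n = 3) in T87 callus and 2.08 ± 0.16 (SD, n = 3) in 2,4-D-induced callus and was not called. WIND2, a close relative of WIND1, was the member called higher, with a log2 change of 1.06, a call that ended without T87 replicate 1 (0.96) or 2,4-D-induced replicate 3 (0.89), and WIND3 changed by 0.93, which was not called.

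Embryo regulators were called in both directions. FUS3 and LEC1 were higher in T87 callus and BBM was lower. Among 9 members tested of 10, 5 were called higher in T87 callus and 3 lower. Of those tested, 3 entered through T87 callus alone, and with normexp LEC2 (log2 0.65) and ABI3 (0.82) were not called. FUS3, a B3-domain factor of seed maturation, stood at 1.26, 1.62 and 0.81 in T87 callus, against -5.67, -5.64 and -5.67 in 2,4-D-induced callus. LEC1, an embryo-specific subunit of the NF-Y complex, had 2.31, 3.11 and 2.01 in T87 callus, against -1.21, -1.56 and -0.35 in 2,4-D-induced callus. The arrays of the calli did not overlap for either gene, and the changes were 118-fold for FUS3 (log2 6.89, SE 0.26, adjusted p = 3.94e-08) and 11.5-fold for LEC1 (log2 3.52, SE 0.35, adjusted p = 1.29e-05). LEC2, which triggers somatic embryos when overexpressed, was low in T87 callus at -4.62, -2.87 and -3.06 and at background in 2,4-D-induced callus, a difference of at least 7.71-fold (adjusted p = 4.48e-05). ABI3, the abscisic acid partner of FUS3, was 13.8-fold higher in T87 callus. BABY BOOM (BBM, AT5G17430), an embryo factor of the PLETHORA family, was at -5.87, -5.69 and -6.18 in T87 callus, against 2.07, 2.66 and 2.65 in 2,4-D-induced callus. It was thus 332-fold lower in T87 callus (log2 -8.38, SE 0.58, adjusted p = 1.22e-06), in the direction of PLT1 and PLT2. AGL15, a MADS factor that promotes somatic embryogenesis, and WRI1, which controls oil synthesis, were also lower, by 4.24-fold and 2.17-fold. WRI1 was not called without T87 replicate 1 (-0.93).

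Endosperm regulators and seed products were present in T87 callus as well. MYB118, which acts in the endosperm of the maturing seed, was at -2.02, -0.30 and -1.71 in T87 callus and at background in 2,4-D-induced callus (at least 34.8-fold, adjusted p = 7.65e-07). RGE1 (AT1G49770, also ZHOUPI), which controls endosperm breakdown, was at 1.23, 1.75 and 1.30 in T87 callus, against -8.75, -7.73 and -8.93 in 2,4-D-induced callus, at least 237-fold apart. Of 15 seed storage and late embryo genes, 9 were tested, 4 of them only through T87 callus, so their count of 7 higher and 0 lower is a description of the genes that passed. The oil body proteins OLEO1 and OLEO2 stood at -1.21, -0.47 and -1.83 and at -0.86, -0.30 and -1.81 in T87 callus and were at background on every 2,4-D-induced array, at least 39.2-fold and 44.4-fold below. PER1, a seed peroxiredoxin, was at least 31.7-fold higher in T87 callus. The seed vacuole aquaporins TIP3;1 and TIP3;2 were higher too, by 8.05-fold and by at least 10.7-fold. With normexp MYB118 (log2 1.61), OLEO1 (1.95), OLEO2 (2.17), PER1 (1.87), TIP3;1 (0.98) and TIP3;2 (0.99) kept their direction and lost their calls. EM1, a late embryo protein gene, averaged -2.85 ± 0.69 (SD, n = 3) in T87 callus and -2.67 ± 0.50 (SD, n = 3) in 2,4-D-induced callus and was not called.

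In the shoot meristem list, members were called in both directions, WUS and CLV3 higher in T87 callus and the KNOX homeobox genes STM and KNAT1 lower. WUS, which specifies the organizing centre of the shoot meristem, was at -4.91, -3.51 and -4.93 in T87 callus, against -8.12, -7.14 and -8.97 in 2,4-D-induced callus, where it was at background (at least 4.03-fold, adjusted p = 0.000367), and with normexp its log2 change was 0.05 and not called. CLV3, the peptide gene of shoot stem cells, was at least 2.64-fold higher in T87 callus, a direction that normexp turned (-0.12, not called), and ESR1, an inducer of shoot regeneration, was 13.4-fold higher. STM, the KNOX gene that keeps the shoot meristem undifferentiated, was at -6.03, -8.46 and -8.28 in T87 callus, against -1.66, -0.91 and -1.90 in 2,4-D-induced callus. STM was well above background on 1 T87 array and was 68.6-fold lower in T87 callus (adjusted p = 1.44e-05). KNAT1, LAS and CUC1 changed by -3.34, -4.56 and -1.94. With normexp STM (-2.285), LAS (-1.63) and CUC1 (-1.18) kept their direction and lost their calls. In all, 3 of 13 members were higher and 6 lower.

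**Figure D2:**
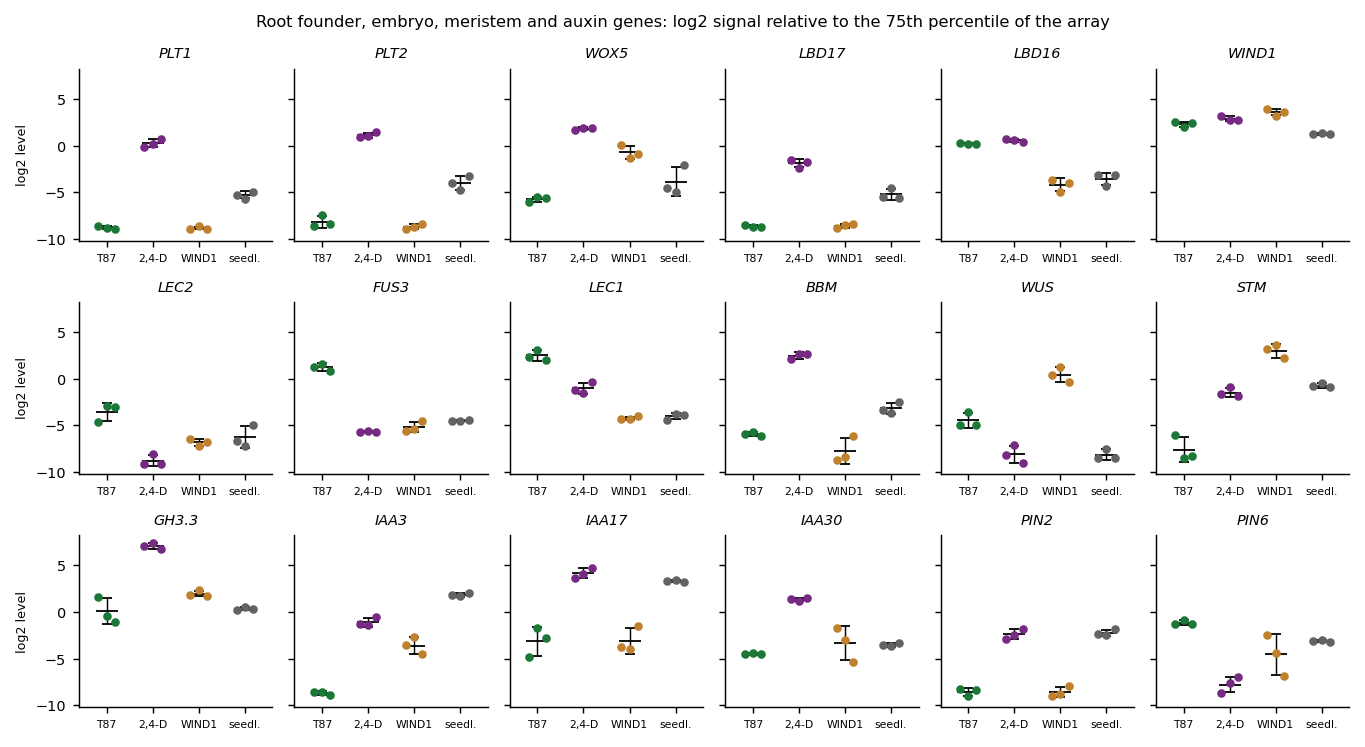
Log2 levels of 18 regulators and auxin genes on each array, grouped as T87 callus, 2,4-D-induced callus, 35S:WIND1 callus and seedlings, with bars for mean and SD of 3 arrays. PLT1, PLT2 and LBD17 lie near -8 to -9 in T87 callus, where LBD16 lies close to its level in 2,4-D-induced callus.

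In the auxin pathway, more genes of conjugation, repression and transport were called lower in T87 callus than higher. The GH3 enzymes join auxin to amino acids and are among the fastest genes to respond to auxin. Of 8 conjugation and oxidation genes tested, 6 were called lower and 1 higher, with a median log2 change of -4.54. GH3.3 had log2 levels of 1.59, -0.41 and -1.08 in T87 callus, against 7.05, 7.36 and 6.76 in 2,4-D-induced callus. GH3.1 had -5.18, -5.82 and -6.17 in T87 callus, against 1.50, 1.61 and 1.52 in 2,4-D-induced callus. GH3.3 was 130.3-fold lower (log2 -7.03, SE 0.54, adjusted p = 2.52e-06) and GH3.1 154-fold lower (log2 -7.27, SE 0.57, adjusted p = 2.85e-06), with no overlap between the calli. In seedlings and 35S:WIND1 callus, both kept without auxin, GH3.3 averaged 0.35 ± 0.18 (SD, n = 3) and 1.94 ± 0.30 (SD, n = 3). GH3.2, GH3.5 and GH3.6 changed by -5.76, -4.0 and -3.95, and DAO1, which oxidizes auxin, by -5.08. GH3.17, which is not known for auxin induction, averaged 3.20 ± 0.67 (SD, n = 3) in T87 callus and 2.97 ± 0.60 (SD, n = 3) in 2,4-D-induced callus and was not called. GH3.9 was at least 2.86-fold higher in T87 callus (0.201 and not called with normexp).

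Aux/IAA proteins repress auxin response until the receptors mark them for destruction. Of 26 tested, 15 were called lower in T87 callus and 1 higher, with a median log2 change of -1.94. IAA3 was at background in T87 callus, with -8.59, -8.54 and -8.94, against -1.35, -1.44 and -0.58 in 2,4-D-induced callus, a difference of at least 46.0-fold (adjusted p = 2.13e-07). IAA17 stood at -4.80, -1.75 and -2.85 in T87 callus, against 3.60, 4.08 and 4.70 in 2,4-D-induced callus, 153-fold lower (SE of log2 change 0.79, adjusted p = 2.65e-05). IAA30, one of the members without the usual degradation signal, was at -4.54, -4.44 and -4.56 in T87 callus, against 1.33, 1.20 and 1.46 in 2,4-D-induced callus, 57.4-fold lower (adjusted p = 4.2e-05). None of these overlapped between the calli. The other changes among called members ran from -5.01 for IAA4 and -4.54 for IAA29 through -3.63, -3.28, -2.94, -2.75, -2.68, -2.65, -2.34 and -2.33 for IAA20, IAA34, IAA13, IAA19, IAA5, IAA2, IAA11 and IAA9 to -1.56 for IAA7 and -1.13 for IAA18. IAA7 was not called with the replicate block on the 6 arrays alone (adjusted p = 0.11). With normexp IAA20 (-2.205), IAA34 (-1.435), IAA7 (-0.758) and IAA18 (-0.962) kept their direction and lost their calls. IAA1 was 2.05-fold higher in T87 callus (adjusted p = 0.0133), with 3.62, 3.61 and 3.30 in T87 callus, against 2.70, 2.28 and 2.44 in 2,4-D-induced callus, but the call ended without T87 replicate 1 (log2 change 0.98) or 2 (0.99) or 2,4-D-induced replicate 2 (0.94). Without T87 replicate 2, IAA31 was called higher (1.60). The 10 members not called were IAA6, IAA8, IAA10, IAA12, IAA14, IAA16, IAA26, IAA27, IAA28 and IAA31, with changes from -0.82 for IAA10 to 1.03 for IAA31. The lowered members did not fall into a single class, since IAA14 (0.10) and IAA16 (0.01) are close relatives of IAA7 and IAA17 and did not pass the test.

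Of 6 auxin receptor genes, 2 were called lower. AFB1 and AFB3 were 4.72-fold and 2.09-fold lower in T87 callus (adjusted p = 0.00013 and 2.32e-05), while TIR1 (log2 change -0.73), AFB2 (-0.26), AFB4 (-0.75) and AFB5 (0.14) were not called. Without T87 replicate 2, AFB3 was not called either (log2 change -0.99). Among 14 transporters tested, 10 were lower and 1 higher. PIN2, the root epidermis and cortex efflux carrier, was at background in T87 callus and at -2.88, -2.45 and -1.80 in 2,4-D-induced callus (at least 19.3-fold lower in T87 callus). The efflux carriers PIN4, PIN7 and PIN3 changed by -5.16, -2.55 and -2.27, and the influx carriers LAX2, LAX3 and AUX1 by -3.73, -2.87 and -1.33. The ABC transporters ABCB19 and ABCB4 changed by -3.63 and -1.38, and LAX1 (-0.75) and ABCB1 (-0.30) were not called, with PIN5 at background in both. PIN6, a carrier found partly on internal membranes, went the other way, at -1.28, -0.84 and -1.33 in T87 callus, against -8.68, -7.64 and -7.0 in 2,4-D-induced callus, at least 39.7-fold higher (adjusted p = 9.98e-05). In the synthesis list, TAA1 and TAR2, which make the precursor indole-3-pyruvate, changed by -1.91 and -3.41, TAA1 without a call under the replicate block on the 6 arrays alone (adjusted p = 0.0538). The YUCCA enzymes YUC8 and YUC4, which finish the pathway, were at least 12.7-fold and 10.3-fold lower in T87 callus, YUC6 changed by -1.31, and YUC3 (-0.40) was not called. YUC1, YUC2 and YUC9 were at background in T87 callus and not called either. With normexp the calls of AFB3 (-0.979), PIN2 (-1.88), TAA1 (-0.805), TAR2 (-1.208), YUC8 (-1.638), YUC4 (-1.384) and YUC6 (-0.651) were lost.

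Cytokinin genes were called in both directions. ARR3, ARR6, ARR5, ARR9 and ARR4 are A-type response regulators, whose transcripts report cytokinin response, and CKX enzymes break cytokinin down. ARR3 was at background in T87 callus and at -1.05, -0.73 and 0.17 in 2,4-D-induced callus, at least 69.0-fold apart (-3.25 and not called with normexp). ARR6, ARR5, ARR9 and ARR4 changed by -4.06, -2.55, -2.23 and -1.63, whereas ARR16, of the same class, was at least 3.53-fold higher in T87 callus (log2 -0.11 and not called with normexp) and ARR7 was not called (-0.20). CKX3 had -4.22, -2.30 and -3.77 in T87 callus, against 4.40, 4.38 and 4.01 in 2,4-D-induced callus, and was 208-fold lower (adjusted p = 2.6e-06). The synthesis genes IPT3 and IPT1 were higher in T87 callus, with IPT3 at -1.90, -3.57 and -3.33 in T87 callus and at background in 2,4-D-induced callus (at least 11.3-fold), and IPT1 20.0-fold higher, though neither was called with normexp (log2 1.01 and 1.35). The receptor AHK4 was 4.44-fold higher in T87 callus (adjusted p = 0.000604). Of 22 members tested, 6 were higher and 10 lower, and 1 of the 22 entered through T87 callus alone. Ethylene genes included ACO1, which completes ethylene synthesis and fell by 159-fold in T87 callus (log2 -7.32, SE 0.65, adjusted p = 6.23e-06). ERF1, a target of the ethylene pathway, was 43.4-fold lower and the synthase gene ACS8 at least 39.4-fold lower (-2.41 and not called with normexp). The synthase genes ACS7 and ACS6 were 6.59-fold and 4.40-fold higher. ARD3, an enzyme of the methionine salvage cycle that ethylene synthesis feeds, showed the largest fall among named genes measured on all 6 arrays. It stood at -5.44, -3.46 and -5.32 in T87 callus, against 5.16, 5.53 and 5.69 in 2,4-D-induced callus, a log2 change of -10.20 (SE 0.91, adjusted p = 6.83e-06).

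Photosynthesis genes were higher in T87 callus almost without exception. Of 36 antenna and photosystem subunit genes, 35 were called higher, with a median log2 change of 3.23, and all 15 Rubisco and Calvin cycle genes were called higher, with a median of 4.87. The median log2 level of the antenna and photosystem list was 4.52 in T87 callus, 1.08 in 2,4-D-induced callus, 4.40 in 35S:WIND1 callus and 7.02 in seedlings. PSBS, which triggers the safe disposal of excess light energy, was 32.6-fold higher, with 4.88, 4.68 and 5.03 in T87 callus, against 0.08, 0.21 and -0.78 in 2,4-D-induced callus. LHCB6, an antenna protein of photosystem II, had 6.75, 6.71 and 6.86 in T87 callus, against 2.80, 2.92 and 1.88 in 2,4-D-induced callus. For both genes 2,4-D-induced replicate 3 was the lowest array, and the list medians by slide were 2.94, 2.68 and 4.09, so the size of the difference depended on that array and its direction did not. The Calvin cycle enzymes FBA2, GAPB and PRK were 58.3-fold, 46.0-fold and 32.6-fold higher in T87 callus (adjusted p = 5.4e-06, 2.55e-06 and 2.87e-06). The Rubisco small subunit RBCS3B showed the largest rise among named genes measured on all 6 arrays, with a log2 change of 9.05, but RBCS and LHCB1 copies are nearly identical in sequence and their probes may not separate them.

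The factors that control chloroplast genes followed. GLK1, which activates antenna and chlorophyll synthesis genes, was at -3.49, -3.06 and -3.42 in T87 callus and at background in 2,4-D-induced callus (at least 8.82-fold, adjusted p = 0.000228), and GLK2 was 8.29-fold higher. With normexp GLK1 (0.76) was not called, and GLK2 (1.97) still was. In the chlorophyll synthesis list 12 of 16 were higher and 0 lower, among them CRD1 (log2 change 4.33), GUN4 (4.21) and DVR (4.08), which act in the magnesium branch. CHLD, CAO and GSA1 were not called, at 0.54, 0.64 and 0.78. Photorespiration, the salvage of the product that Rubisco forms with oxygen, was represented among the largest rises. GDCH, a subunit of glycine decarboxylase, stood at 2.09, 2.06 and 2.38 in T87 callus, against -6.12, -5.02 and -6.22 in 2,4-D-induced callus (log2 change 7.96, SE 0.29, adjusted p = 3.26e-08). GOX1, a glycolate oxidase, and PMDH2, the malate dehydrogenase of peroxisomes, changed by 6.25 and 5.94. PSRP3/1, a protein of the chloroplast ribosome, PMI1, which positions chloroplasts in the cell, and CSP41A, a chloroplast RNA-binding protein, were also among the 15 largest rises, with 5.98, 6.0 and 5.95.

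The genes with the widest separation between the calli included targets and enzymes of DNA methylation. FWA (AT4G25530) is a homeobox gene that DNA methylation normally keeps silent outside the endosperm, and SDC (AT2G17690) is an F-box gene silenced by non-CG methylation. FWA had 3.54, 3.55 and 3.84 in T87 callus, against -8.85, -7.83 and -9.04 in 2,4-D-induced callus. SDC had 3.82, 3.82 and 3.46 in T87 callus, against -8.93, -7.92 and -7.81 in 2,4-D-induced callus. Both were at background on all 2,4-D-induced arrays, and on average at -7.81 ± 1.0 (SD, n = 3) for FWA and -8.78 ± 0.14 (SD, n = 3) for SDC in 35S:WIND1 callus, so the level in T87 callus was at least 1102-fold and at least 1146-fold higher (adjusted p = 3.34e-08 and 2.33e-08). AT5G07260, which has no symbol in the reference table, had a larger bound than both, at least 1817-fold. DRM1, a de novo methyltransferase gene usually little expressed, was at 0.23, 0.44 and 0.45 in T87 callus, at least 114-fold higher, while its paralog DRM2, the main enzyme, was not called (-0.31). AGO9, an Argonaute that binds small RNAs of transposons, was at least 62.7-fold higher. ROS1, the glycosylase that removes DNA methylation, was at background in T87 callus, with -8.36, -7.0 and -8.65, against -0.86, -0.87 and -1.48 in 2,4-D-induced callus, at least 47.7-fold lower (adjusted p = 9.64e-07). The maintenance genes MET1 and DDM1 were not called (0.80 and 0.66), CMT3 and VIM3 were 2.77-fold and 3.10-fold higher, and NRPD1, the large subunit of RNA polymerase IV, was 2.35-fold lower. With normexp NRPD1 (-0.916) was not called. Over the list, 7 of 22 were higher and 2 lower, with a median of 0.56 (0.205 with normexp), but 2 of the 22 entered through T87 callus alone and had to be higher. Which members these were is not given here, and FWA and SDC may be among them. None of the 8 Polycomb genes tested was called, with changes from -0.47 for CLF to 0.47 for VRN2. Of 81 annotated pseudogenes tested, 29 were higher in T87 callus and 15 lower, against 19.7% and 19.2% of all genes. Whether their values reflect silencing was not tested.

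Most MADS-box genes of flower development were higher in T87 callus, several of them from background in 2,4-D-induced callus. Of 15 tested, 11 were higher in T87 callus and 2 lower, with a median log2 change of 4.82 (3.32 at bounds). The median was 1.18 with normexp and turned to -3.30 under the filter on all 12 arrays, which leaves out members at background in any group, and 3 members entered through T87 callus alone. AG, which specifies stamens and carpels, stood at 0.91, 0.74 and 1.20 in T87 callus, against -8.82, -7.70 and -9.0 in 2,4-D-induced callus. SEP1, a partner of the organ identity factors, stood at 1.72, 0.56 and 1.30 in T87 callus, against -8.65, -7.73 and -6.62 in 2,4-D-induced callus. Both were at background on every 2,4-D-induced array, at least 171-fold (adjusted p = 1.59e-08) and 192-fold (0.00136) below T87 callus. SEP3, AP1 and SHP2 were at least 66.3-fold, 45.8-fold and 17.4-fold higher in T87 callus. FLC, the repressor of flowering, was 51.6-fold higher (adjusted p = 1.18e-05), and the floral promoter SOC1 was 6.75-fold higher. AP1, SHP2, FLC and AP3 were not called with normexp (log2 2.24, 1.54, 1.86 and 0.34). SVP, another repressor of flowering, ran opposite to FLC, with -2.79, -4.40 and -3.49 in T87 callus, against 2.29, 2.42 and 2.31 in 2,4-D-induced callus, 59.7-fold lower (adjusted p = 2.83e-07), and so did SHP1 (log2 change -5.59), the close paralog of SHP2. PI, which specifies petals and stamens, was high in both calli, at 4.64, 3.72 and 4.16 in T87 callus, against 5.09, 5.38 and 5.06 in 2,4-D-induced callus, and was not called (log2 change -1.0, adjusted p = 0.0829). Its partner AP3 was at least 2.56-fold higher in T87 callus.

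**Figure D3:**
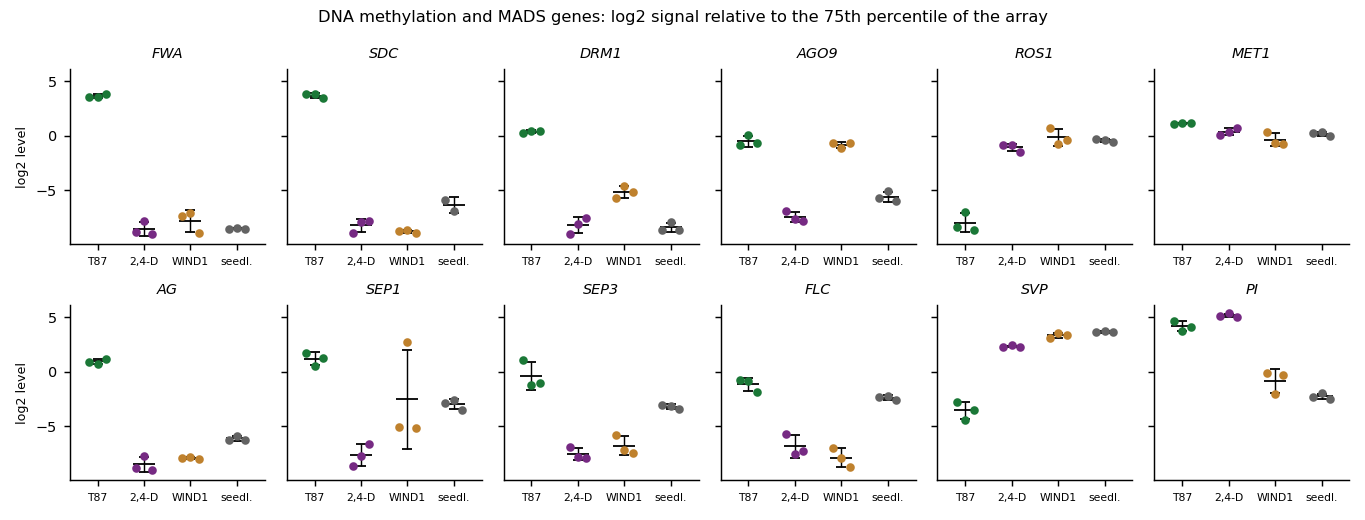
Log2 levels on each array of 6 genes tied to DNA methylation and 6 MADS genes, as T87 callus, 2,4-D-induced callus, 35S:WIND1 callus and seedlings, with bars for mean and SD (a spot marked as an outlier left SDC with fewer seedling values). FWA, SDC, DRM1, AG, SEP1 and SEP3 stand high in T87 callus and at background in 2,4-D-induced callus, ROS1 and SVP show the opposite order, and PI is high in both.

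Small heat shock proteins, which hold unfolding proteins in solution, were higher in T87 callus. Of 23 heat shock genes tested, 17 were called higher and 1 lower, with a median log2 change of 2.96. HSP21, the chloroplast member, had 2.33, 2.56 and 2.82 in T87 callus, against -7.34, -5.41 and -5.70 in 2,4-D-induced callus. It was 421-fold higher (log2 8.72, SE 0.75, adjusted p = 5.35e-06). HSP22 of the endoplasmic reticulum changed by 7.82, HSP23.6 of mitochondria by 6.14, and the cytosolic HSP18.2 and HSP17.6C by 5.93 and 5.91. The disaggregase HSP101 was 4.15-fold higher, and the heat shock factors HSFA2 and HSFA3 were 3.29-fold and 13.1-fold higher. HSFA7A went the other way, with -0.97, -0.61 and -1.11 in T87 callus, against 3.80, 3.51 and 2.77 in 2,4-D-induced callus, and was 19.2-fold lower (adjusted p = 2.69e-05). HSFA1A, a constitutive master factor, and HSP70 were not called (0.68 and 0.34).

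DNA replication genes were higher in T87 callus, and most mitotic genes did not pass the test. Among 21 replication genes, 17 were called higher and none lower, with a median log2 change of 1.97. The MCM genes encode the replicative helicase: MCM4 had 3.46, 3.52 and 3.33 in T87 callus, against -1.19, -1.07 and -0.84 in 2,4-D-induced callus (log2 change 4.47, SE 0.28, adjusted p = 7.13e-07). MCM5, MCM2, MCM6, MCM3 and MCM7 changed by 3.58, 2.77, 2.46, 2.0 and 1.39, and the origin recognition genes ORC3 and ORC2 by 2.57 and 2.29. With normexp ORC3 (0.948) was not called. Of 24 mitotic genes, 4 were called higher, namely CYCB1;1 (2.23), CYCA2;1 (1.89, and -0.12 and not called with normexp), CDKB1;1 (1.57) and AUR1 (1.03), and the median change was 0.64. AUR1 was not called without T87 replicate 2 (0.87) or 2,4-D-induced replicate 1 (0.76), or with normexp (0.856). KNOLLE, which builds the new cell plate, averaged 2.22 ± 0.19 (SD, n = 3) in T87 callus and 2.13 ± 0.39 (SD, n = 3) in 2,4-D-induced callus. Of 18 D-type cyclins and CDK inhibitors, 6 were higher and 5 lower. CYCD5;1 was 7.83-fold higher in T87 callus, CYCD3;2 and CYCD3;3 were 11-fold and 5.49-fold lower, and CYCD6;1, a target of SHR and SCR in the root, was at least 12.5-fold lower. CYCD3;1 was not called (-0.39). Among CDK inhibitors, KRP1, KRP3, KRP5 and KRP7 were higher (1.41, 1.08, 1.08 and 1.45), and KRP2 was 2.02-fold lower. With normexp KRP3 (0.581), KRP5 (0.889), KRP7 (0.815) and KRP2 (-0.781) lost their calls. KRP1 was not called without 2,4-D-induced replicate 3 (0.96), KRP5 without T87 replicate 2 (0.96) or 2,4-D-induced replicate 1 (0.93), and KRP2 without T87 replicate 3 (-0.94) or 2,4-D-induced replicate 2 (-0.96) or 3 (-0.88).

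Markers of outer tissues were lower in T87 callus. None of 21 epidermis and cuticle genes was higher and 16 were lower, with a median log2 change of -2.88 and median levels of -4.40 in T87 callus, -0.61 in 2,4-D-induced callus, 1.24 in 35S:WIND1 callus and 2.02 in seedlings. FDH, which makes the very long fatty acids of the cuticle, had -5.75, -8.49 and -7.85 in T87 callus, against 0.54, 1.23 and 1.05 in 2,4-D-induced callus. LTP1, a lipid transfer protein of epidermal cells, had -2.37, -7.46 and -8.84 in T87 callus, against 1.57, 2.41 and 2.08 in 2,4-D-induced callus. The changes were -8.31 for FDH (SE 0.56, adjusted p = 1.1e-06) and -8.24 for LTP1 (SE 1.27, adjusted p = 0.000283). BDG and PDF1 were at background in T87 callus, at least 65.8-fold and 13.8-fold lower. With normexp PDF1 (-1.52) and PDF2 (-0.89) were not called. ATML1, the master regulator of epidermal identity, was not called (log2 change -0.35), whereas its partner PDF2 was 4.32-fold lower, and not called without T87 replicate 3 (log2 -1.57) or 2,4-D-induced replicate 2 (-1.85). Suberin genes followed the cuticle genes, with 7 of 8 lower and none higher. CYP86A1 and ASFT, which make suberin monomers, were at background in T87 callus, at least 16.2-fold and 32.2-fold lower. With normexp CYP86A1 (-1.89) and ASFT (-2.30) kept their direction and lost their calls.

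Root markers gave the same picture with exceptions. RHD6, which starts root hairs, had -7.49, -6.0 and -7.81 in T87 callus, against 1.10, 0.90 and 0.99 in 2,4-D-induced callus, a log2 change of -8.10 (SE 0.42, adjusted p = 1.94e-07). SMB and FEZ, which pattern the root cap, were lower by 76.6-fold and by at least 18.4-fold, and WER, a root epidermis factor, by at least 23.5-fold. GL2, which blocks root hair fate, was 2.64-fold higher in T87 callus. With normexp FEZ (-1.83), WER (-2.21) and GL2 (0.265) kept their direction and lost their calls. In all 8 of 10 members were lower and 1 higher, and 1 of the 10 entered through 2,4-D-induced callus alone. In the endodermis list MYB36, the switch for Casparian strip formation, changed by -5.05, the receptor gene SGN3 by 2.91, and the CASP genes were not called. Phloem markers SEOR1 and PP2-A1 were at background in T87 callus, at least 73.1-fold and 19.9-fold lower, the phloem regulator APL changed by -3.32, and the sugar exporter SWEET11 by 2.70, which was not called without T87 replicate 2 (1.52) or 2,4-D-induced replicate 2 (2.30) or 3 (2.73), or with the replicate block on the 6 arrays alone (adjusted p = 0.113). Of 12 leaf polarity genes tested, 5 were called lower and 7 were not called. The list median was -0.515, or -0.046 with dim members at their bounds. KAN1, KAN2, YAB3 and FIL were at background in T87 callus, at least 10.9-fold, 9.49-fold, 5.14-fold and 3.93-fold lower, and REV and PHB were not called (0.80 and 0.01). With normexp KAN1 (-1.39), KAN2 (-1.40), YAB3 (-1.215) and FIL (-0.95) kept their direction and lost their calls. So did PP2-A1 (-1.87), APL (-1.54), SGN3 (0.94) and SWEET11 (0.105). Of 14 xylem genes, 3 were called higher, a share near that of all genes, namely the secondary wall cellulose synthases CESA8 (2.80) and CESA7 (2.07) and the vessel protease XCP1 (1.67), and none lower. With normexp none of the 3 was called (0.23, 0.84 and 0.56), and the list median of 0.29 turned to -0.20. XCP1 was not called with the replicate block (adjusted p = 0.0626) or without any single array (log2 1.44 to 1.83), and CESA7 was not without 2,4-D-induced replicate 1 (1.91). In the list of stomata and trichome genes, 6 of 13 were at background in both calli, including FAMA, SPCH and GL1. Of the 13, 3 were called higher and 2 lower, and the median log2 change was -0.053. The 3 were EPF2 and MUTE, both of the stomatal lineage, at least 4.93-fold and 1.59-fold higher in T87 callus, and MYB60, a guard cell factor, 12.3-fold higher. With normexp none of the 3 was called (0.27, -0.08 and 0.88). Whether the share of such cells took part in any other difference was not tested.

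The glucosinolate and myrosinase list had 9 of 23 lower and none higher. MYB34, a regulator of indole glucosinolates, had -5.13, -8.72 and -8.72 in T87 callus, against -0.57, -0.06 and 1.18 in 2,4-D-induced callus, and was 209-fold lower (adjusted p = 2.64e-05). The related MYB51 changed by -4.32, and the enzymes CYP79B2 and CYP83B1, which start the indole branch, by -3.31 and -2.56. The aliphatic branch was dim in both, with MYB28 and MYB76 at background on all 6 arrays. ER bodies are compartments that store a myrosinase, and PYK10, that enzyme, NAI2, which forms the bodies, and PBP1, which binds PYK10, changed by -7.31, -8.14 and -8.49. PBP1 stood at -4.65, -5.60 and -5.36 in T87 callus, against 3.10, 3.20 and 3.54 in 2,4-D-induced callus, and PYK10 at -2.62, -3.02 and -2.59 in T87 callus, against 4.22, 4.55 and 4.92 in 2,4-D-induced callus. Neither gene overlapped between the calli.

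The thalianol gene cluster makes a root triterpene from neighbouring genes on chromosome 5, and its genes were picked after their values were seen. Its 4 neighbours THAS1 (AT5G48010), CYP708A2 (AT5G48000), CYP705A5 (AT5G47990) and AT5G47980 were at background on all T87 arrays. The synthase THAS1 stood at -8.63, -8.98 and -8.98 in T87 callus, against -1.48, -0.80 and -0.16 in 2,4-D-induced callus, at least 57.1-fold lower (adjusted p = 5.08e-07). The hydroxylase CYP708A2 was at least 97.2-fold lower, the desaturase CYP705A5 at least 20.1-fold, and AT5G47980 at least 3.04-fold. With normexp CYP705A5 (-1.883) and AT5G47980 (-0.873) were not called. In seedlings THAS1 and CYP708A2 averaged -0.26 ± 0.10 (SD, n = 3) and -0.12 ± 0.19 (SD, n = 3). In the marneral cluster of the same chromosome, the synthase MRN1 was at background in both calli. Flavonoid genes were mixed, with 4 of 13 higher and 3 lower, and 1 of the 13 entered through 2,4-D-induced callus alone. MYB11 and MYB12, which activate flavonol synthesis, were lower by at least 14.6-fold and by 24.3-fold, as was chalcone synthase TT4 by at least 1.45-fold. With normexp MYB11 (-1.649), MYB12 (-1.984) and TT4 (-0.77) lost their calls. PAP1, the anthocyanin regulator, was at least 1.36-fold higher. PAP1 was not called without T87 replicate 2 (log2 2.10) or 2,4-D-induced replicate 1 (1.98), and normexp turned its direction (-0.26, not called). Of 10 phenylpropanoid genes, FAH1 and 4CL1 were higher (2.46 and 1.48) and the rest were not called. CAD2, of the cinnamyl alcohol dehydrogenase family, was among the largest rises, with 2.34, 2.22 and 2.24 in T87 callus, against -2.88, -5.11 and -6.76 in 2,4-D-induced callus.

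Of 12 nitrate and ammonium genes, 4 were higher and 1 lower, and of 17 phosphate, sulfate and iron genes, 2 were higher and 5 lower. NRT2.3, NRT2.5 and NRT2.6, of the high-affinity nitrate transporter family, were higher in T87 callus, by at least 16.1-fold, by 21.7-fold and by 16.1-fold. With normexp NRT2.3 (1.33) was not called. NRT2.1, the main root transporter, was not called (0.46). The nitrate reductase NIA1 was 5.76-fold lower and NIA2 was not called (0.27). SULTR1;2, a sulfate transporter, was 4.85-fold higher, and the sulfur starvation marker SDI1 was 27.7-fold lower. The copper transporter COPT2 was among the largest rises (5.96). Cell wall invertase CWINV1 (-5.22), the starch synthase GBSS1 (-4.75) and the asparagine synthetase ASN1 (-4.0) were lower in T87 callus. With normexp GBSS1 (-1.959) was not called. APL1 and APL3, large subunits of the enzyme that begins starch synthesis, were higher (2.84 and 2.08). Hypoxia genes had 6 of 14 lower and 2 higher, led by the sucrose synthase SUS4 (-3.51) and the oxygen sensor PCO1 (2.04), and ADH1 was not called (-0.50).

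Stress hormone genes were more often lower than higher. In the abscisic acid list 10 of 14 were lower and 2 higher. RD22 and RD29B, both induced by dehydration, changed by -5.37 and -4.0. NCED3, which makes the hormone, was at least 1.30-fold lower (-0.78 and not called with normexp). COR15A, a cold-induced chloroplast protein gene, was at least 3.20-fold higher (-0.02 and not called with normexp). In the salicylate and defence list 6 of 15 were lower and 2 higher, namely PR2, a glucanase gene (at least 4.46-fold), and the receptor kinase gene FRK1 (2.38). Neither was called with normexp (0.13 for PR2 and 0.22 for FRK1), PR2 was not without T87 replicate 1 or 2 or any single 2,4-D-induced array (2.25 to 2.51), and FRK1, whose arrays overlapped, was not without T87 replicate 2 or 3 or 2,4-D-induced replicate 1 or 2 (1.79 to 2.21). NIMIN1 (-6.50), which binds the receptor NPR1, PAD4 (-6.09), which promotes salicylate signalling, and WRKY70 (-5.18) were lower in T87 callus, and NPR1 was not called (-0.46). With normexp NIMIN1 (-2.809) was not called. Jasmonate genes had 4 of 23 higher and 7 lower. The lipoxygenase LOX2 (4.27) and the methyltransferase JMT (at least 8.84-fold) were higher, and AOS (-1.54), the next enzyme of jasmonate synthesis, and VSP1 (-3.13), a storage protein, were lower. With normexp LOX2 (2.213), JMT (0.652) and VSP1 (-1.237) lost their calls.

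Of 35 glutathione transferases, 16 were lower and 6 higher. GSTU1 and GSTU2 changed by -6.30 and -6.09, and GSTU26 was at least 40.4-fold lower (-2.73 and not called with normexp). GSTU18 had 2.54, 2.09 and 2.28 in T87 callus, against -4.48, -4.10 and -4.65 in 2,4-D-induced callus, and rose by 6.71 (SE 0.26, adjusted p = 4.33e-08), as did its neighbour GSTU17 by 5.83. Among 26 aquaporins, 7 were higher and 6 lower, shares near those of all genes: PIP2;8 of the plasma membrane and NIP1;1 were at least 57.4-fold and 14.1-fold lower, NIP6;1, a boric acid channel, at least 12.2-fold higher and TIP2;2 of the vacuole 17.6-fold higher. The wall-loosening expansins and XTH enzymes had 13 of 21 lower and 2 higher, with EXPA15 at -5.37 and EXPA5 at least 2.15-fold higher (-0.16 and not called with normexp). Among senescence genes, SAG13 changed by -6.60 and SAG12, a protease of ageing leaves, by 3.69, though SAG12 was not called with normexp (1.707). Other large falls were those of GRP9 (-9.97), a glycine-rich protein, KTI1 (-8.60), a Kunitz protease inhibitor, and STY2 (-8.45), of the SHI/STY family of auxin synthesis activators. Housekeeping genes marked the other end, with 0 of 11 called and changes from -0.81 for EIF4A1 to 0.81 for YLS8. Of 11 clock genes tested, PRR9, LHY and TOC1 were lower (-1.60, -1.12 and -1.03) and the other 8 were not called, with LHY at -1.0 and TOC1 at -0.91 and not called under median scaling, and TOC1 not called without T87 replicate 1 (-0.93) or 2,4-D-induced replicate 1 (-0.92) or 2 (-0.91).

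The difference between the calli also varied along the chromosomes. The 16953 genes of chromosomes 1 to 5 that were well above background on all 6 arrays were divided into 169 windows of about 100 neighbours, a division chosen after the data were seen. Window medians of the log2 change ran from -0.90 to 1.12, and in 139 windows they had the same sign on all 3 slides. The highest window lay on chromosome 2, from AT2G02760 to AT2G04795, where the medians by slide were 1.70, 0.75 and 1.01, and 51 of 100 genes were called higher against 17 lower. The next lay on chromosome 1, from AT1G68190 to AT1G69690, with 1.30, 1.02 and 1.11 by slide, 55 genes higher and 13 lower. The lowest lay on chromosome 3, from AT3G13080 to AT3G14220, with -0.91, -0.92 and -0.86 by slide, 5 genes higher and 42 lower. In these 3 windows the median difference of T87 callus from seedlings was 1.27, 1.25 and -0.47, and that of 2,4-D-induced callus 0.01, 0.34 and 0.52, with the seedling arrays shared by both. In 2,4-D-induced callus the median difference from seedlings was -0.04 on chromosome 2 and 0.34 to 0.39 on the other chromosomes, against -0.03 on chromosome 2 and 0.06 to 0.35 on the others in T87 callus. What sets these steps was not tested.

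**Figure D4:**
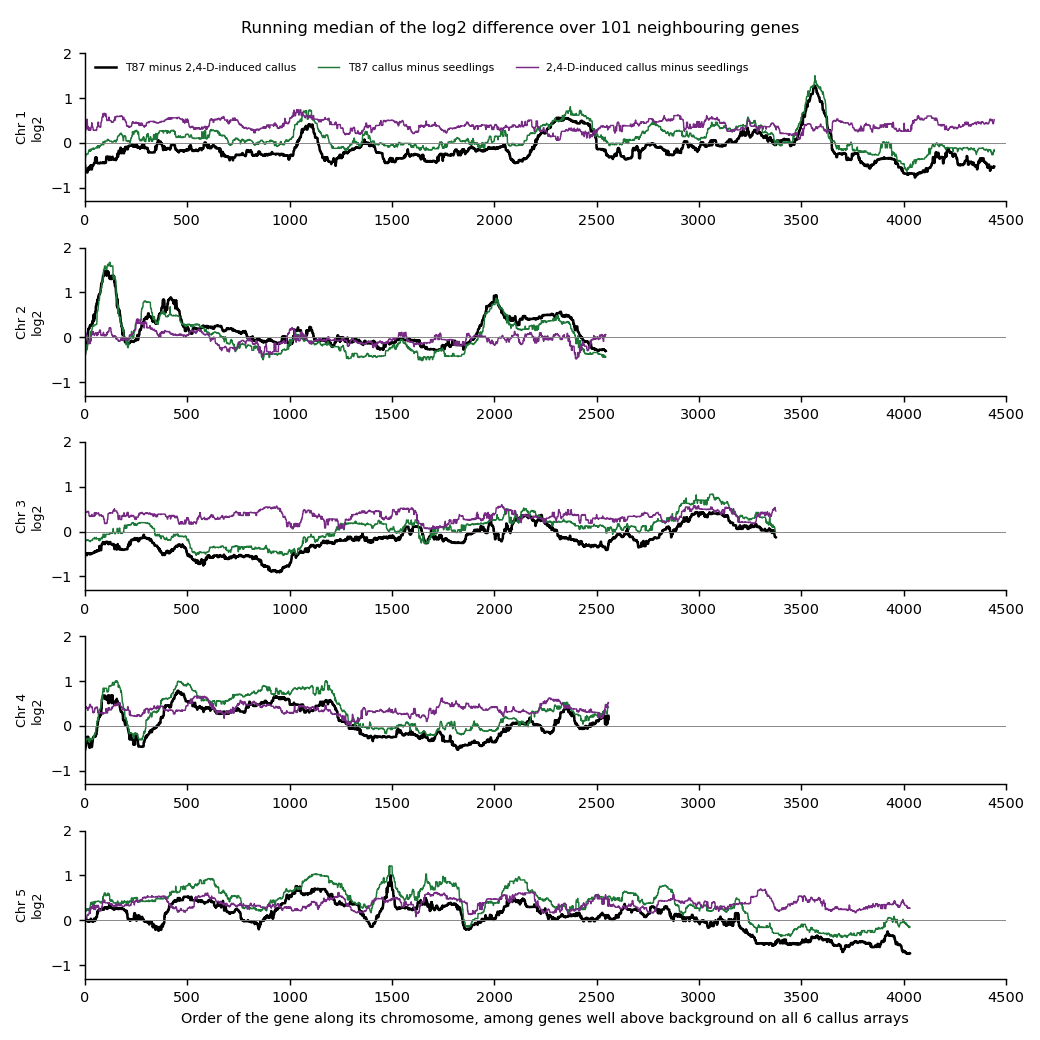
Running median of the log2 difference over 101 neighbouring genes, for T87 minus 2,4-D-induced callus, T87 callus minus seedlings and 2,4-D-induced callus minus seedlings, against gene order on each chromosome. The first 2 lines share T87 callus and step up and down together, with peaks on chromosomes 1 and 2, while the 2,4-D-induced line is flatter and lies nearer 0 on chromosome 2.

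A block of neighbouring genes on chromosome 3, from AT3G50210 to AT3G50520, was at background in 2,4-D-induced callus. The block was noticed through CEN2 (AT3G50360, a centrin) and AT3G50520, which have 2 of the 10 largest bounds of genes higher in T87 callus. It holds 24 tested genes, of which 19 were called higher in T87 callus and 0 lower, 20 were not well above background on any 2,4-D-induced array and the other 4 were so on only some. CEN2 had 2.51, 2.48 and 2.32 in T87 callus, against -8.71, -7.74 and -7.80 in 2,4-D-induced callus, at least 478-fold (adjusted p = 8.95e-05). SNRK2.2, a kinase of abscisic acid signalling, had 1.41, 1.29 and 1.32 in T87 callus, against -8.27, -8.11 and -9.17 in 2,4-D-induced callus, at least 223-fold. Over the 19 genes measured on all T87 and 35S:WIND1 arrays, the median level was 0.05, -0.11 and 0.03 on the T87 arrays and -8.65, -7.67 and -8.49 on the 2,4-D-induced arrays. It was 0.13, 0.16 and 0.19 in 35S:WIND1 callus, and -2.55, -7.45 and -1.62 on the seedling arrays, whose replicate 2 was the lowest of the 3 for all 19 genes. Seedling replicate 2 thus stood with the 2,4-D-induced arrays and the other 2 seedling arrays in between. In the 20 tested genes on either side, the medians were -1.16 to -1.33 in T87 callus, -0.75 to -1.08 in 2,4-D-induced callus, -0.76 to -0.99 in 35S:WIND1 callus and -1.36 to -1.46 in seedlings. Among neighbouring genes that every array of 2 or more other groups detected, the longest unbroken dim run was 6 genes in 2,4-D-induced callus, all in this block, against 4 in T87 callus. Whether the DNA of the block is present in each sample was not tested, and its genes are no independent signs of the state of the callus.

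**Figure D5:**
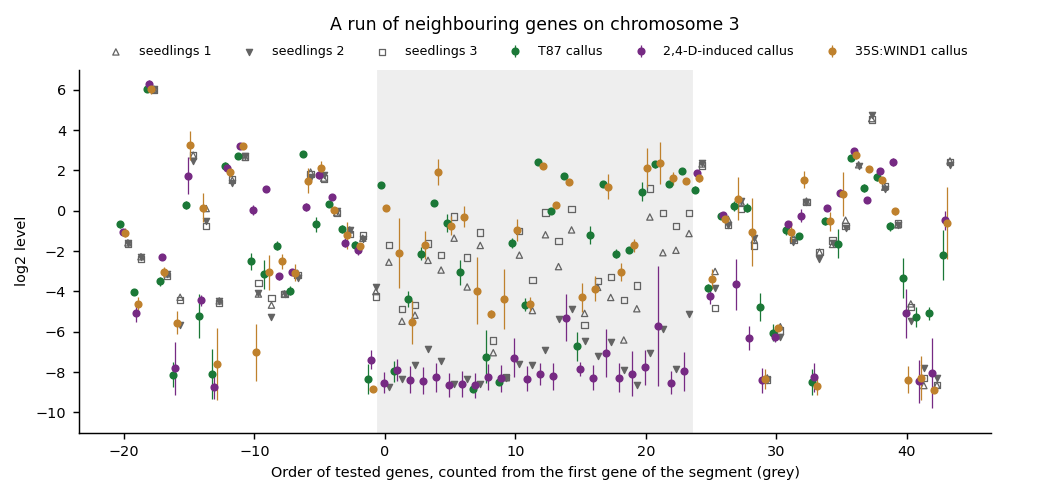
Log2 levels of 24 neighbouring genes of chromosome 3 (grey) and 20 tested genes on each side, as mean and SD of 3 arrays for T87 callus, 2,4-D-induced callus and 35S:WIND1 callus, and as single arrays for the seedlings. Within the grey block the 2,4-D-induced values and seedling replicate 2 lie at the bottom, and outside it the groups mix.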

How the data were processed

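RNA of 12 samples, labelled with Cy3, was read on one-colour Agilent arrays, per the labels' protocols. The deposited scanner output gives each spot's intensity, linear and background-subtracted, per the file headers, made with Agilent Feature Extraction 9.1.3.1, per the submitters' processing notes. The series values deposited beside it are in natural log units. Each equals the natural log of a spot's processed signal plus a constant that differs by group (-7.58 in the T87 columns, -7.48 in the 2,4-D columns) and whose origin is unknown, so these values served as an alternative only. The medians of the T87 columns lay between -2.57 and -2.40, those of the 2,4-D columns between -2.70 and -2.34. The genome build was not given in any source at hand, and no coordinate or sequence is printed.

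Control spots (1417 an array) and outlier spots (27 to 81 on the callus arrays compared) were dropped, and no spot was saturated. Log2 processed signals were set against each array's 75th percentile, taken from 37685 spots. Probes were kept where all 3 arrays of any group detected them well above background, with 1 probe a locus, the brightest, leaving 21357 genes. Of 332 genes with several probes detected throughout, 3 had probes that changed at least 2-fold in opposite directions. Locus codes are those of the array, and 21230 matched a RefSeq gene table of assembly TAIR10.1. One limma 3.58.1 fit (R 4.3.3, lmFit and eBayes, two-sided, no block) took all 12 arrays. For a gene at background in a callus, each dim array entered the bound at its detection floor, or at the gene's signal where that was higher. In simulated data for this comparison, on 20954 genes with 200 changed, 91% of log2 changes of 2 and 98% of changes of 3 were recovered. The simulation had no detection floor and a far smaller share of changed genes than the 38.9% called here. Its rates do not describe genes at background in a callus. With 3 arrays a group, array number limits precision, and p-values measure the spread between these samples.

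The 46 gene lists, with 715 of 740 members tested, and the comparison itself were chosen with earlier results of these data known. The naming rule took the 15 largest changes and the 10 largest bounds per direction, up to 4 called members per list and direction, the auxin genes and WIND1. The text gives part of these, and 1 member of the auxin lists is not reported here. Each slide held 1 array of every group under 1 replicate number, per the file headers, so equal numbers share a slide. Deviations from the group means correlated at 0.123, 0.124 and 0.090 between same-numbered arrays of the calli, against -0.106 to 0.007 for other pairs. Alternatives were normexp (offset 50, on median spot and background signals), quantile normalization, median scaling, the deposited series values, other filters, the mean of probes, the 6 arrays alone, the replicate block and leaving out each array.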

Additional observations from a re-analysis of the deposited data

How the results depend on the processing

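The counts of called genes, 4206 higher and 4094 lower, kept within 1.5 times under the settings tried except normexp, with 2301 higher and 1942 lower, and the filter on all 12 arrays, with 2702 lower (2817 higher), where fewer genes were tested. With normexp 4232 of its 4243 called genes were also called in the main result. With the replicate block 4181 were higher and 4078 lower, and 8210 of these 8259 genes were the same. The block on the 6 arrays alone gave 4240 and 4149. Leaving out single arrays gave 4051 to 4150 higher and 3951 to 4069 lower. Over all genes the median log2 change stood at -0.04, against 0.08 with median scaling, 0.10 with the deposited series values and -0.14 with normexp, and the share of calls that were higher ran from 50.4% to 56.5%. Of 293 genes named, 7 called ones changed sign with normexp, all to values not called: PAP1 -0.26, EXPA5 -0.16, CLV3 -0.12, CYCA2;1 -0.12, ARR16 -0.11, MUTE -0.075 and COR15A -0.023. Another 89 lost their calls with normexp. Under the other settings none of the called genes among them changed sign. With the replicate block XCP1 lost its call (adjusted p = 0.0626; 0.0544 with no filter on dim probes), and with the block on the 6 arrays alone SWEET11, TAA1 and IAA7 lost theirs (0.113, 0.0538 and 0.110), SWEET11 also with the 6 arrays alone (0.065). With median scaling or the deposited values, small changes near 2-fold lost their calls (AFB3 at -0.94 and -0.92, LHY at -1.0 and -0.98, TOC1 at -0.91 and -0.89, KRP2 at -0.89 and -0.87, WRI1 at -1.0 and -0.98), IAA18 did with the deposited values (-0.98), KRP2 and TOC1 also with quantile normalization (-0.97 and -0.98), and WIND3 was called higher (1.05 and 1.07). PI was called lower with the 6 arrays alone (-1.0, adjusted p = 0.0144). Under the filter on all 12 arrays the medians of the embryo (-1.12) and MADS (-3.30) lists turned, since members at background in a group were not tested. The leaf polarity (-0.515 to 0.084) and ethylene (-0.169 to 0.008) medians turned under it too. The stomata and trichome median of -0.053 turned under several settings, to 3.227 with the filter on the 2 calli. So did the aquaporin median of -0.119 (0.175 without T87 replicate 2). The Polycomb median of 0.06 turned to -0.109 with no filter on dim probes. The median of the xylem list was 0.29, and -0.20 with normexp, and that of the flavonoid list 0.51, and -0.39 with normexp. Signal over background limits what can be said of the 744 genes at background in both calli.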

Other observations

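Of 4206 genes higher in T87 callus, the seedling mean lay nearer T87 callus for 2011 and nearer 2,4-D-induced callus for 2195. Of 4094 lower genes the numbers were 1645 and 2449. The MADS gene AGL90, known from the endosperm, was at -2.57, -4.50 and -3.99 in T87 callus, against -7.42, -7.71 and -7.15 in 2,4-D-induced callus, at least 6.86-fold higher. With normexp AGL90 (0.719) was not called. On chromosome 2, the nudix hydrolase gene NUDT6 (AT2G04450) and the next 4 tested genes, up to AT2G04515, were at background on all 3 T87 arrays. NUDT6 stood at -8.25, -8.49 and -8.55 in T87 callus, against -1.95, -0.85 and -0.66 in 2,4-D-induced callus, at least 45.1-fold lower (-2.53 and not called with normexp). NUDT6 and these 4 genes lie between AT2G02760 and AT2G04795, the ends of the window with the highest median log2 change of all windows (1.12). Being at background in T87 callus, they were not among its 100 genes and did not enter that median. NUDT6 and these 4 genes were chosen after their values were seen.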
